A study of Mus musculus with 12 samples.

Results

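The osteoblast lineage genes described here are 9 genes that mark or drive the formation of bone-forming cells: the transcription factor genes Runx2, Sp7, Dlx5, Dlx3 and Msx2, and the matrix and mineralization genes Alpl, Bglap, Ibsp and Spp1. They were taken by name from a table of 21881 genes, and all 9 were found. They were measured by sequencing of polyadenylated RNA in 12 libraries of cultured mouse mesenchymal stem cells, the fibroblast-like cells of bone marrow that can give rise to bone, cartilage and fat. The cells came from immortalized monoclonal lines of C57BL/6 mice that were either Dicer -/- (KO) or Dicer f/f (WT, with floxed alleles still in place), and Dicer is the nuclease that cuts mature microRNAs from their precursors. KO cells received a synthetic let-7g duplex (KO_let-7g), an siRNA against Nr6a1 (KO_siNr6a1) or a nontargeting control siRNA (KO_siCtrl), and WT cells received the control siRNA (WT_siCtrl).

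Each of the 4 groups had 3 libraries, numbered 0, 1 and 2. All groups shared the culture medium, alpha-MEM with serum, the transfection at 20 nM and the harvest at 48 h. No group was labelled as having received a medium that induces bone formation. The labels do not count the clonal lines behind each genotype, so genotype and line cannot be told apart. Separate cultures are not named in the labels. The p-values below thus reflect library-to-library spread, possibly technical, and nothing wider. Values are FPKM (fragments divided by transcript length and by the mapped fragments of the library), and group levels are means ± SD over 3 libraries. Differences are on the scale of log2(FPKM + 1), where a low gene's change looks smaller than it is.

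Runx2 and Sp7 (osterix) encode the transcription factors that commit mesenchymal cells to the osteoblast fate, with Runx2 acting upstream of Sp7. Dlx5, Dlx3 and Msx2 encode homeodomain proteins that act in bone and craniofacial development and respond to bone morphogenetic proteins. Alkaline phosphatase (Alpl) frees phosphate for mineral, bone sialoprotein (Ibsp) and osteocalcin (Bglap) are matrix proteins of mineralizing bone, and osteopontin (Spp1) is a secreted phosphoprotein that osteoblasts, macrophages and many other cells make.

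The transfected small RNA and a match to it come first, because let-7g is a treatment of 1 group. Mature let-7g as RefSeq gives it for mouse build GRCm38.p6, chr9:106178846-106178867 on the plus strand, is shown with its seed, bases 2 to 8, in capitals. The stretch below it, from the 3′ untranslated region of Nr6a1 on chromosome 2, starts 10 bases before a perfect match to that seed, which is in capitals.

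mmu-let-7g-5p: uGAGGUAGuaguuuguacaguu

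Nr6a1 site: acaaagacaaCTACCTCaatggaaacag

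The Nr6a1 untranslated region, 4453 bases long in the reference transcripts used, held 8 matches to the 7 bases CTACCTC, of which 3 were followed by an A. The 3′ untranslated regions of the 9 osteoblast lineage genes were 134 to 3904 bases long and held 0 such matches. This is a description of the letters in 1 transcript for each gene and says nothing on binding.

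The start site windows of Bglap, Spp1 and Msx2 are shown because these genes ended at opposite ends of the KO cells' changes: Spp1 was higher in KO cells, and both others were lower by far. Each window runs from 250 bases before to 50 bases after an annotated start in RefSeq GRCm38.p6, and lies at chr3:88384417-88384716 (minus strand, Bglap), chr5:104434861-104435160 (plus strand, Spp1) and chr13:53472731-53473030 (minus strand, Msx2). Capitals mark TGTGGT, the core bound by RUNX factors, read on either strand (ACCACA on the opposite one), and TAATTA, a core of homeodomain proteins, which reads the same on both strands.

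Bglap: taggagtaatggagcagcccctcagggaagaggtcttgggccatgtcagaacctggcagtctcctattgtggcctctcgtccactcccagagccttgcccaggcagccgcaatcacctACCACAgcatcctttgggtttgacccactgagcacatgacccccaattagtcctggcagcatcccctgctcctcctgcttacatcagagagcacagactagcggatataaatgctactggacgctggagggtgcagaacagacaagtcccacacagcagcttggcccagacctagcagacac

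Spp1: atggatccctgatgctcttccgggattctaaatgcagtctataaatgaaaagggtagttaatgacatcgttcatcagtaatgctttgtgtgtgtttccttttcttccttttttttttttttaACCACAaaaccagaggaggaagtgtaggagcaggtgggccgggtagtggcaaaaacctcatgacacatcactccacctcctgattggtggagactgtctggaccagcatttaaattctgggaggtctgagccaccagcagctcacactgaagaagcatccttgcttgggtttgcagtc

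Msx2: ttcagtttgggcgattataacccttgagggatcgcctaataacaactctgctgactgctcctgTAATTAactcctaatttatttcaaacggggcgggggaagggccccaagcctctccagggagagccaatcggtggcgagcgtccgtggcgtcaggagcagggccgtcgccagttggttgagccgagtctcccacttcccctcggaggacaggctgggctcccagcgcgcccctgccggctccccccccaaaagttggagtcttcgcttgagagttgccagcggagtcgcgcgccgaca

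The RUNX core stood at base -132 from the start in Bglap and at base -128 in Spp1, on the minus strand relative to the gene in both. Of 32851 mouse windows of the same length, 16.8% held the RUNX core and 5.29% held TAATTA, which stood at base -187 in Msx2. Spp1 has a second annotated start, whose window at chr5:104435942-104436241 held no RUNX core and a TAATTA at base -122. Windows were given for 6 of the 9 genes. In the window of Runx2 itself the RUNX core occurred 3 times, at bases -80, 24 and 32. No window of Ibsp or Alpl held the RUNX core in these letters, which says nothing about whether RUNX factors act there.

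The targeted genes and the cell type were checked next. Nr6a1, a nuclear receptor gene, stood at 3.87, 5.38 and 3.39 FPKM in KO_let-7g libraries, 3.43, 4.30 and 3.31 in KO_siNr6a1, 12.6, 12.3 and 10.2 in KO_siCtrl and 1.16, 0.945 and 1.26 in WT_siCtrl. In both treated groups Nr6a1 lay below every KO_siCtrl library and above every WT library. Dicer1 RNA was still present in the KO lines, at 3.86 ± 0.214 FPKM in KO_siCtrl against 6.58 ± 1.45 in WT_siCtrl. Gene-level FPKM does not show which exons remain, so it does not check the deletion. Of the markers of mesenchymal stem cells, Itgb1 (333 ± 39.5 FPKM in KO_siCtrl against 418 ± 51.4 in WT_siCtrl) and Eng (39.9 ± 4.73 against 53.8 ± 9.06) were present. Of the 11 such markers tested, 6 were called lower and 3 higher in KO_siCtrl against WT_siCtrl. Over all genes tested, 25.2% were called lower and 29.1% higher. On the lower side were Mcam (3.52 ± 0.787 FPKM in KO_siCtrl against 44.4 ± 7.08 in WT_siCtrl), Alcam (1.14 ± 0.284 against 4.30 ± 1.19) and Pdgfra (a difference of -0.93 in log2(FPKM + 1)), among others. Ly6a (48.8 ± 5.15 against 17.8 ± 2.46) was on the higher. Thy1 was listed at 0 in all KO_siNr6a1, KO_siCtrl and WT_siCtrl libraries. The leukocyte marker Ptprc stood at or under 0.0177 FPKM in every KO_siCtrl and WT_siCtrl library. Relative depth, with the shallowest library set to 1, was 1.34 to 1.82 in KO_let-7g, 1.13 to 1.57 in KO_siNr6a1, 1 to 1.31 in KO_siCtrl and 1.11 to 1.29 in WT_siCtrl.

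KO_siCtrl against WT_siCtrl asks how cells without Dicer differ from cells with it. The KO_siCtrl cells held less RNA of 7 of the 9 osteoblast genes: Sp7, Bglap, Ibsp and Msx2 reached at most 1.04 FPKM in any KO_siCtrl library, Alpl and Dlx5 were more than 10-fold lower, and Runx2 stood at 0.551 of its WT level. Spp1 and Dlx3 ran the other way and were higher in KO cells. All 9 genes had non-overlapping groups in this comparison, as had 57.2% of all genes tested. With limma and Benjamini-Hochberg adjustment over the 11801 genes tested, 7 of the 8 genes that passed the filter were called lower and 1, Spp1, higher at an adjusted p under 0.05. Over all genes tested, 29.1% were called higher and 25.2% lower, so a call on its own is common here. Sp7, Msx2, Bglap and Ibsp passed the filter, 3 or more libraries with an FPKM of 1 or more, only through WT libraries, and so had to differ. Their count and their p-values against WT support nothing beyond their values. In bulk RNA, fewer cells that express a gene and less RNA in each cell cannot be told apart.

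**Figure D1:**
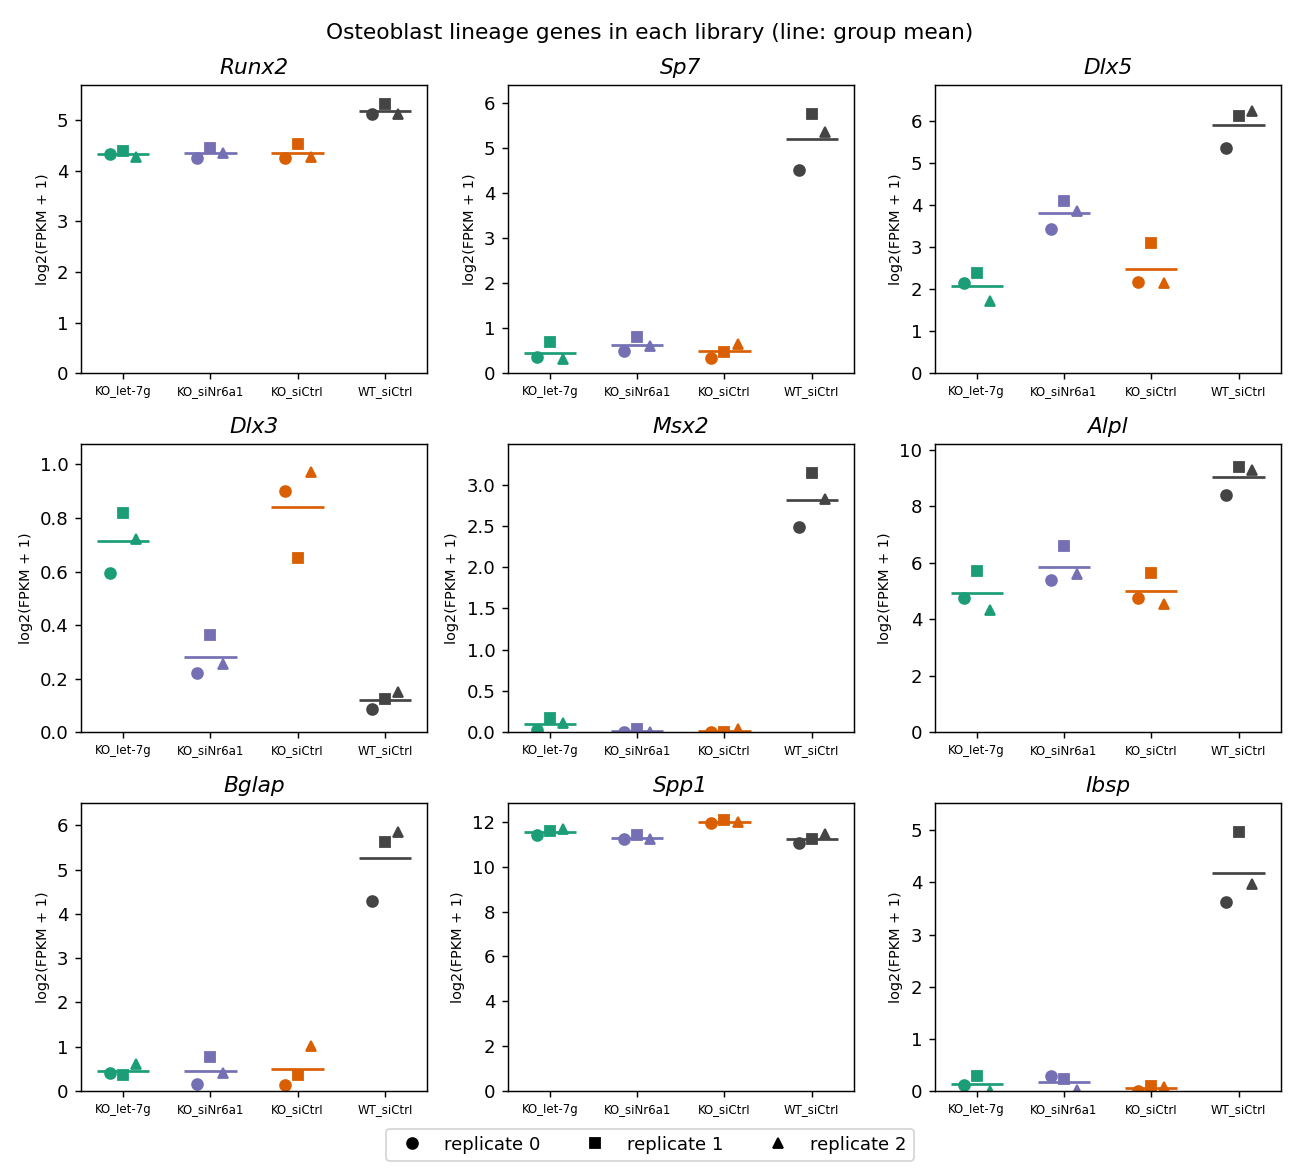
FPKM of the 9 osteoblast lineage genes as log2(FPKM + 1) (y axis, starting at 0, scale set per gene) in the 3 libraries of each group (x axis; circles, squares and triangles are replicates 0, 1 and 2, lines are group means). Sp7, Msx2, Bglap and Ibsp lie near 0 in every KO group, Dlx5 is higher in KO_siNr6a1 than in the other KO groups, and the means of Dlx3 and Spp1 are highest in KO_siCtrl.

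Among the transcription factor genes, Runx2 kept a moderate level in every library. It had 18.1, 22.0 and 18.2 FPKM in KO_siCtrl, against 33.5, 38.8 and 33.6 in WT_siCtrl. Every KO_siCtrl library lay below every WT library, and the spread within each group was small. Its difference was -0.83 (SE 0.10, adjusted p = 3.42e-05, limma).

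Sp7 had 0.268, 0.389 and 0.579 FPKM in KO_siCtrl, against 21.9, 53.7 and 40.2 in WT_siCtrl. The WT mean was 93.7 times the KO_siCtrl mean, the groups lay far apart, and WT replicate 0 was the lowest of its group. The difference was -4.73 (SE 0.26, adjusted p = 9.3e-08, limma), with the limit of the filter given above. Low FPKM values of Sp7 were whole multiples of a common step, taken as 1 read, and came to 10, 19 and 24 steps in KO_siCtrl libraries, so low levels of Sp7 RNA were measured in each of them.

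Dlx5 had 3.51, 7.66 and 3.46 FPKM in KO_siCtrl, against 40.0, 68.7 and 75.2 in WT_siCtrl. KO_siCtrl replicate 1 stood above the other 2 and still far below each WT library. The WT mean was 12.6 times the KO_siCtrl mean, and the difference was -3.43 (SE 0.31, adjusted p = 4.37e-06, limma). Dlx6, which neighbours Dlx5 and encodes a related homeodomain protein, stood at 2.01 ± 0.927 FPKM in KO_siCtrl and 23.8 ± 5.08 in WT_siCtrl.

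Msx2 was listed at 0, 0 and 0.0256 FPKM in KO_siCtrl, against 4.59, 7.82 and 6.08 in WT_siCtrl. The only KO_siCtrl value above 0 equalled 1 step, so no fold is given for it. On the log2(FPKM + 1) scale the groups differed by -2.80 (SE 0.14, adjusted p = 4.45e-08, limma), with the limit of the filter given above.

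Dlx3 was low everywhere and failed the filter. It had 0.866, 0.568 and 0.962 FPKM in KO_siCtrl, against 0.0627, 0.0897 and 0.109 in WT_siCtrl. The groups did not overlap, and the KO_siCtrl mean was 9.18 times the WT mean. Fitted without the filter, Dlx3 was higher in KO_siCtrl by 0.72 (SE 0.08, adjusted p = 0.000121, limma). Dlx3 and Dlx5, members of 1 gene family, therefore changed in opposite directions between the genotypes.

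Among the matrix genes, Alpl was the most abundant in WT cells after Spp1. It had 26.3, 48.7 and 22.5 FPKM in KO_siCtrl, against 336, 668 and 623 in WT_siCtrl. No library of the groups came close to the other group, and the WT mean was 16.7 times the KO_siCtrl mean. The difference was -4.03 (SE 0.44, adjusted p = 1.79e-05, limma).

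Bglap had 0.101, 0.283 and 1.04 FPKM in KO_siCtrl, against 18.6, 48.2 and 57.1 in WT_siCtrl. The KO_siCtrl values spread widely but all lay far below WT, and the WT mean was 87.1 times the KO_siCtrl mean. That ratio rests on KO_siCtrl replicate 2, without which it was 215. The difference was -4.75 (SE 0.36, adjusted p = 1.19e-06, limma), with the limit of the filter given above. Bglap2 is a near-identical copy of osteocalcin, and reads can be split between it and Bglap: the Bglap and Bglap2 transcripts were identical at 98.9% of 439 aligned bases. The FPKM of each gene alone is therefore uncertain. Bglap2 had 0.207, 0.527 and 0.744 FPKM in KO_siCtrl, against 15.3, 49.0 and 54.7 in WT_siCtrl, so its groups did not overlap either.

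Ibsp had 0, 0.0730 and 0.0573 FPKM in KO_siCtrl, against 11.3, 30.3 and 14.7 in WT_siCtrl. The KO_siCtrl libraries came to 0, 3 and 2 steps, so no fold is given. The groups differed by -4.13 on the log2(FPKM + 1) scale (SE 0.26, adjusted p = 3.06e-07, limma), with the limit of the filter given above.

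Spp1 stood apart from the other matrix genes in level and direction. It ranked between the 2nd and 12th of 21881 genes in every library. It had 3903, 4318 and 4009 FPKM in KO_siCtrl, against 2095, 2393 and 2816 in WT_siCtrl. All KO_siCtrl libraries lay above all WT libraries, and the difference was 0.75 (SE 0.13, adjusted p = 0.000516, limma). Since macrophages also make osteopontin, their markers are given beside it. Of 13 markers of macrophages and osteoclasts in the table, 4 passed the filter. The 13 summed to 16.5 to 17.7 FPKM in KO_siCtrl and 11.8 to 14.2 in WT_siCtrl. In KO_let-7g, where Spp1 was lower than in KO_siCtrl, they summed to 20.2 to 27.7 FPKM, and in KO_siNr6a1 to 12.3 to 13.4. Of the 4 that passed, Cd14 (11.6 ± 1.69 FPKM in KO_siCtrl against 7.32 ± 0.881 in WT_siCtrl) and Mmp9 (2.33 ± 1.26 against 0.427 ± 0.107) were called higher and Ctsk lower (-1.62). Over all genes tested, 29.1% were called higher and 25.2% lower in that comparison. Ctsk passed the filter through WT libraries alone, so it had to be lower. Mmp9 passed through KO libraries alone, so its direction was tied to the filter too. Against KO_siCtrl, 2 of these 4 markers were called higher and 1 lower in KO_let-7g, and 0 and 1 in KO_siNr6a1. Over all genes 27.5% were called higher and 18.2% lower in KO_let-7g, and 13.2% and 16.3% in KO_siNr6a1. Under each of the 4 other scalings, 1 of the 4 markers was called higher in KO_let-7g. In KO_siNr6a1 the number called lower was 0 after upper quartile, median of ratios and quantile scaling. With let-7g, Cd68 rose to 5.81 ± 1.32 FPKM from 1.84 ± 0.453, and Mmp9 fell to 0.694 ± 0.368. Csf1r, which failed the filter, was highest in KO_siCtrl, at 0.0654 ± 0.0373 FPKM in KO_let-7g, 0.0811 ± 0.0469 in KO_siNr6a1, 0.494 ± 0.0567 in KO_siCtrl and 0.111 ± 0.0182 in WT_siCtrl. Emr1 was listed at 0 in all KO_siCtrl libraries, and Itgam stood at or under 0.0125 FPKM there. The part of such cells in the level of Spp1 was not tested.

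**Figure D2:**
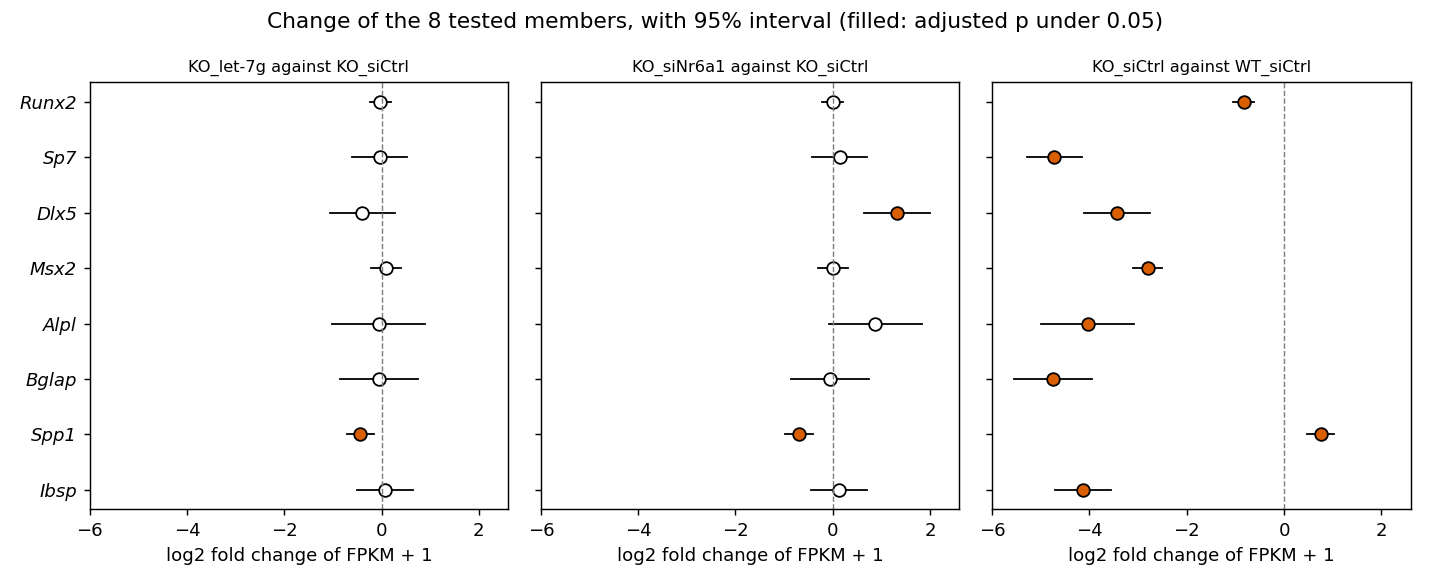
Difference in log2(FPKM + 1) (x axis) for the 8 osteoblast lineage genes that passed the filter (rows), with the 95% interval of the fit over 12 libraries, in KO_let-7g against KO_siCtrl, KO_siNr6a1 against KO_siCtrl and KO_siCtrl against WT_siCtrl. Filled points have an adjusted p under 0.05. In the right panel 7 genes lie below 0 and Spp1 above it, and in the treatment panels Spp1 is lower in both and Dlx5 is higher with siNr6a1.

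KO_let-7g against KO_siCtrl asks which genes change when 1 microRNA is returned to cells that lack Dicer. Spp1 fell, and no other osteoblast gene was called. Of the 8 genes tested, 1 was called lower and 0 higher, where over all genes tested 27.5% were called higher and 18.2% lower. At an unadjusted p under 0.05 in limma the numbers were the same, 1 and 0. Counts over all genes depended on the scaling, since 60.2% of all calls were higher as deposited and 49.3% after median of ratios scaling.

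Spp1 had 2757, 3077 and 3229 FPKM in KO_let-7g, against 3903, 4318 and 4009 in KO_siCtrl. The groups did not overlap, and the KO_let-7g mean was 0.741 of the KO_siCtrl mean. The difference was -0.43 (SE 0.13, adjusted p = 0.0178, limma). The call was lost with quantile normalization (-0.14, adjusted p = 0.565), where no filter on low values was used (adjusted p = 0.186), in a fit of these 2 groups alone (adjusted p = 0.059), without KO_let-7g replicate 0 (adjusted p = 0.0687) and without KO_siCtrl replicate 1 (adjusted p = 0.0597).

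Runx2 stood at 19.0, 20.0 and 18.2 FPKM in KO_let-7g, with a difference from KO_siCtrl of -0.02 and a 95% interval of -0.24 to 0.19. Dlx5 stood at 3.44, 4.23 and 2.32 FPKM in KO_let-7g, and its interval ran from -1.07 to 0.28. Alpl had 26.0, 51.9 and 18.9 FPKM in KO_let-7g, with an interval of -1.01 to 0.90. For both genes the let-7g and KO_siCtrl libraries overlapped.

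The genes with the least RNA in KO_siCtrl remained low. Sp7 had 0.280, 0.618 and 0.244 FPKM in KO_let-7g (difference -0.04, interval -0.60 to 0.53). Bglap had 0.319, 0.286 and 0.519 FPKM in KO_let-7g (difference -0.05, interval -0.85 to 0.74). Ibsp came to 5 steps, 9.25 steps and 0 steps in KO_let-7g, against 0, 3 and 2 in KO_siCtrl. Of the 7 low values of Ibsp above 0 in all libraries, 6 were whole multiples of the step. The value of 9.25 was not, so it is not a read number. Msx2 came to 1, 6 and 4 steps in KO_let-7g, against 0, 0 and 1 in KO_siCtrl. Relative depth of these libraries was 1.82, 1.34 and 1.43 in KO_let-7g and 1, 1.31 and 1.11 in KO_siCtrl. The part of depth in the steps was not tested. WT libraries held 179 to 355.5 steps of Msx2. Differences of a few reads were not resolvable at this depth. Dlx3 had 0.512, 0.763 and 0.651 FPKM in KO_let-7g, overlapping with KO_siCtrl, and was not called in the fit without a filter (-0.13, adjusted p = 0.33, limma).

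KO_siNr6a1 against KO_siCtrl asks which genes change when Nr6a1 is lowered directly in KO cells. Dlx5 rose to 2.71 times the KO_siCtrl mean, and Spp1 fell to 0.617 of it. Of the 8 genes tested, 1 was called higher and 1 lower, where over all genes tested 13.2% were called higher and 16.3% lower. The split of all calls again moved with the scaling, from 44.8% higher as deposited to 56.3% after median of ratios scaling, while the calls of Dlx5 and Spp1 were kept under the 4 scalings tried.

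Dlx5 had 9.92, 16.1 and 13.7 FPKM in KO_siNr6a1, against 3.51, 7.66 and 3.46 in KO_siCtrl. The groups did not overlap, and between libraries of the same number the ratio was 2.82, 2.11 and 3.94. The difference was 1.33 (SE 0.31, adjusted p = 0.00823, limma). The level remained below WT_siCtrl, from which KO_siNr6a1 differed by -2.10 (SE 0.31, adjusted p = 0.000162, limma). Dlx6 stood at 3.21 ± 0.898 FPKM in KO_siNr6a1, against 2.01 ± 0.927 in KO_siCtrl.

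Spp1 had 2378, 2761 and 2405 FPKM in KO_siNr6a1, against 3903, 4318 and 4009 in KO_siCtrl. The groups did not overlap, and the 3 same-number ratios lay between 0.600 and 0.639. The difference was -0.70 (SE 0.13, adjusted p = 0.00246, limma); with no filter on low values the adjusted p was 0.0564. The KO_siNr6a1 level lay within the range of WT_siCtrl (difference 0.05, adjusted p = 0.751, 95% interval -0.23 to 0.34).

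Alpl had 40.9, 95 and 47.8 FPKM in KO_siNr6a1, against 26.3, 48.7 and 22.5 in KO_siCtrl. The groups overlapped, yet each KO_siNr6a1 library was higher than the KO_siCtrl library of the same number, by ratios of 1.55, 1.95 and 2.12. The difference was 0.87 (SE 0.44, adjusted p = 0.157, limma), and in the fit with the replicate number as a block the adjusted p was 0.0115.

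Dlx3 had 0.165, 0.287 and 0.193 FPKM in KO_siNr6a1, against 0.866, 0.568 and 0.962 in KO_siCtrl. The groups did not overlap, and the mean was 0.269 of that in KO_siCtrl. Without a filter the difference was -0.56 (SE 0.08, adjusted p = 0.00199, limma). With siNr6a1, Dlx3 and Dlx5 thus both moved towards their WT levels, in opposite directions. Runx2 stood at 17.9, 20.9 and 19.3 FPKM in KO_siNr6a1 (difference 0.00, interval -0.22 to 0.21). Sp7 had 0.404, 0.752 and 0.531 FPKM, and its interval ran from -0.42 to 0.71. Bglap had 0.126, 0.717 and 0.323 FPKM, Msx2 came to 0, 1 and 0 steps and Ibsp to 8, 6 and 1 steps in KO_siNr6a1. None of these was called.

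**Figure D3:**
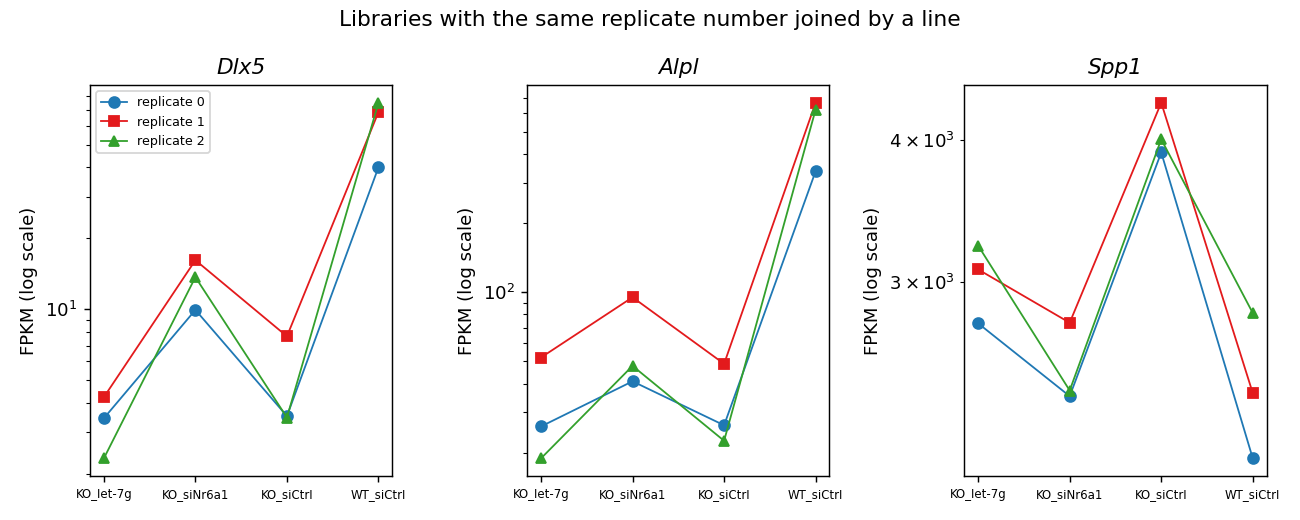
FPKM (y axis, log scale) of Dlx5, Alpl and Spp1 in the 4 groups (x axis), with libraries of the same replicate number joined by lines. Every line of Dlx5 and Alpl is higher in KO_siNr6a1 than in KO_siCtrl, and every line of Spp1 is lower in both treatments than in KO_siCtrl.

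KO_let-7g against KO_siNr6a1 tests whether the treatments differ, without the shared control. Dlx5 did: it had 3.44, 4.23 and 2.32 FPKM in KO_let-7g, against 9.92, 16.1 and 13.7 in KO_siNr6a1, with a difference of -1.72 (SE 0.31, adjusted p = 0.00131, limma) and no overlap. Both treatments left Nr6a1 at a like level (4.22 and 3.68 mean FPKM), with a difference of 0.14 (adjusted p = 0.466, limma). Of the 8 genes, 1 was called lower and 0 higher, where over all genes tested 27.6% were called higher and 13.3% lower; at an unadjusted p under 0.05 in limma the numbers were also 1 and 0. The median of all genes was 0.12 in this comparison as deposited and -0.01 after median of ratios scaling, and the share of calls that were higher was 67.6% and 45.1%.

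Alpl in KO_let-7g lay below KO_siNr6a1 for each replicate number, with ratios of 0.636, 0.547 and 0.396. The difference was -0.93 (SE 0.44, adjusted p = 0.111, limma), and with the replicate block the adjusted p was 0.00651. With single libraries left out the difference ran from -1.33 to -0.57. Among those fits it was called only without KO_let-7g replicate 1, the highest of its group (-1.33, adjusted p = 0.0353, limma). Over all alternatives the adjusted p of Alpl reached 0.349 (limma). Spp1 differed by 0.26 (SE 0.13, adjusted p = 0.125, limma), and with the block the adjusted p was 0.0453. Dlx3 was higher in KO_let-7g without a filter, by 0.43 (adjusted p = 0.00481, limma), and the groups did not overlap.

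The treated groups were also set against WT_siCtrl. In KO_let-7g against WT_siCtrl, 7 of the 8 genes were called lower, where over all genes 35.3% were called higher and 22.8% lower. In KO_siNr6a1 against WT_siCtrl, 7 of the 8 were called lower, where 27.0% were called higher and 27.4% lower. Of these 7, Sp7, Msx2, Bglap and Ibsp entered the test through WT libraries alone and had to be lower in each KO group, so only the values of Runx2, Dlx5 and Alpl bear on these comparisons. These were -0.85, -3.82 and -4.09 in KO_let-7g and -0.83, -2.10 and -3.16 in KO_siNr6a1. The exception in both was Spp1, which differed by 0.32 in KO_let-7g (SE 0.13, adjusted p = 0.0536; 0.0165 with the block, limma). That difference was called in 8 of 18 alternatives, over which it ran from 0.18 with median of ratios scaling to 1.04 with quantile normalization (adjusted p = 0.223 and 0.000548). In KO_siNr6a1 Spp1 differed from WT_siCtrl by 0.05. Ordered by mean level, Spp1 ran from KO_siCtrl down through KO_let-7g and KO_siNr6a1 to WT_siCtrl, and the differences among the last 3 were not called in the reported fit. For Dlx5 the order from low to high was KO_let-7g, KO_siCtrl, KO_siNr6a1 and WT_siCtrl, with only the first pair not called. Dlx3 was lowest in WT_siCtrl, and KO_siNr6a1 exceeded it by 0.16 without a filter (adjusted p = 0.184, limma).

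Libraries within a group often kept their order across the 9 genes. WT replicate 0 was the lowest WT library for all 9, KO_siNr6a1 replicate 1 the highest of its group for 8, and KO_let-7g replicate 1 the highest of its group for 7. Other places were split: in both KO_siCtrl and WT_siCtrl the highest library was replicate 1 for 5 genes and replicate 2 for 4. In KO_let-7g the lowest was replicate 2 for 5, replicate 0 for 3 and replicate 1 for 1. Spread within a group was therefore partly shared among these genes, which are not independent of each other.

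The genes most like each of these genes in pattern were named by the root mean square difference of centred log2(FPKM + 1) over the 12 libraries, among 11800 other genes. For Sp7 these were Bglap (0.264), Kctd12 (0.268) and Bglap2 (0.278), so that 1 of the 9 lay nearest to another. For Dlx5 they were Insc (0.409), Dlx6 (0.461) and Adamts9 (0.466). Alpl lay nearest to Adamts9 (0.349), Pth1r (0.397) and Sdc3 (0.4), and Ibsp to Khdrbs3 (0.223), Pth1r (0.253) and A930038C07Rik (0.255). For Msx2 they were 2810405K02Rik (0.14), Lrp4 (0.145) and Pcp4l1 (0.15), and for Bglap they were Bglap2 (0.16), Sp7 (0.264) and Islr (0.363). These values mostly reflect how far each gene lies below WT in the 9 KO libraries.

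Other genes of the osteoblast pathway were counted in lists. Some members of these lists also passed the filter through WT libraries alone. Of 15 tested regulators of osteoblast transcription, 4 were called higher and 8 lower in KO_siCtrl against WT_siCtrl, with a median of -0.37 beside 0.04 over all genes. Dlx6 was among the lower ones (-3.07, adjusted p = 9.57e-07, limma). So was Zfp521, a zinc finger gene, which entered the test through WT libraries alone and therefore had to be lower. Runx1, a relative of Runx2, was called higher (13 ± 0.860 FPKM in KO_siCtrl against 8.19 ± 0.511 in WT_siCtrl). In KO_let-7g 7 rose and 1 fell against KO_siCtrl, and in KO_siNr6a1 5 rose and 1 fell. Over all genes 27.5% were called higher and 18.2% lower with let-7g, and 13.2% and 16.3% with siNr6a1. In KO_siCtrl against WT_siCtrl these shares were 29.1% and 25.2%. The counts of the next lists are to be read beside these shares too. Fosl2, an AP-1 factor gene, rose to 57.9 ± 1.7 FPKM in KO_let-7g and 48.0 ± 1.09 in KO_siNr6a1, against 29.4 ± 1.02 in KO_siCtrl. Tcf7, a factor of the Wnt pathway, rose to 11.2 ± 0.639 FPKM in KO_let-7g and 11.9 ± 1.93 in KO_siNr6a1, against 4.91 ± 0.340 in KO_siCtrl, while its WT_siCtrl level was 10.7 ± 1.16.

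Of 23 tested genes of bone matrix, collagen maturation and mineralization, 4 were called higher and 17 lower in KO_siCtrl against WT_siCtrl, with a median of -0.76. The type I collagen genes, which make the main protein of bone, were lower: Col1a1 stood at 236 ± 6.59 FPKM in KO_siCtrl against 778 ± 127 in WT_siCtrl, and Col1a2 at 283 ± 12.9 against 1378 ± 109. Smpd3, a sphingomyelinase gene needed for mineralization in mice, stood at 0.946 ± 0.361 FPKM in KO_siCtrl against 20.4 ± 3.75 in WT_siCtrl. The phosphate transporter gene Slc20a1 was higher, at 40.5 ± 1.53 FPKM against 17.7 ± 2.51. In KO_let-7g 3 of the 23 rose and 8 fell against KO_siCtrl, among them Ank, a pyrophosphate transporter gene (66.6 ± 3.56 FPKM against 101 ± 2.14). In KO_siNr6a1 9 rose and 2 fell, those that rose including Serpinh1, a collagen chaperone gene (732 ± 39.9 FPKM against 506 ± 16.2), and Slc20a1 (81.6 ± 0.955 against 40.5 ± 1.53).

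Of 21 tested genes of hormone and cytokine signalling in osteoblasts, 4 were called higher and 11 lower in KO_siCtrl against WT_siCtrl. Pth1r, the receptor of parathyroid hormone, stood at 0.397 ± 0.138 FPKM in KO_siCtrl against 25.6 ± 10.7 in WT_siCtrl, and Fgfr1 at 5.18 ± 0.392 against 24.8 ± 3.34. In KO_let-7g 10 rose and 4 fell against KO_siCtrl, beside 27.5% and 18.2% of all genes, and Vdr, the vitamin D receptor gene, rose to 61.2 ± 3.71 FPKM against 22.5 ± 1.66. In KO_siNr6a1 8 rose and 0 fell (13 and 1 at an unadjusted p under 0.05 in limma), among them Id2 (86.2 ± 17.6 FPKM against 41.2 ± 8.69), which responds to bone morphogenetic proteins. Of the 4 osteocyte markers tested, 3 were higher and 1 lower in KO_siCtrl against WT_siCtrl, with Pdpn at 12.1 ± 3.90 FPKM against 0.411 ± 0.165 and Dmp1 at 1.32 ± 0.437 against 5.08 ± 2.33. Pdpn passed the filter through KO libraries alone.

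**Figure D4:**
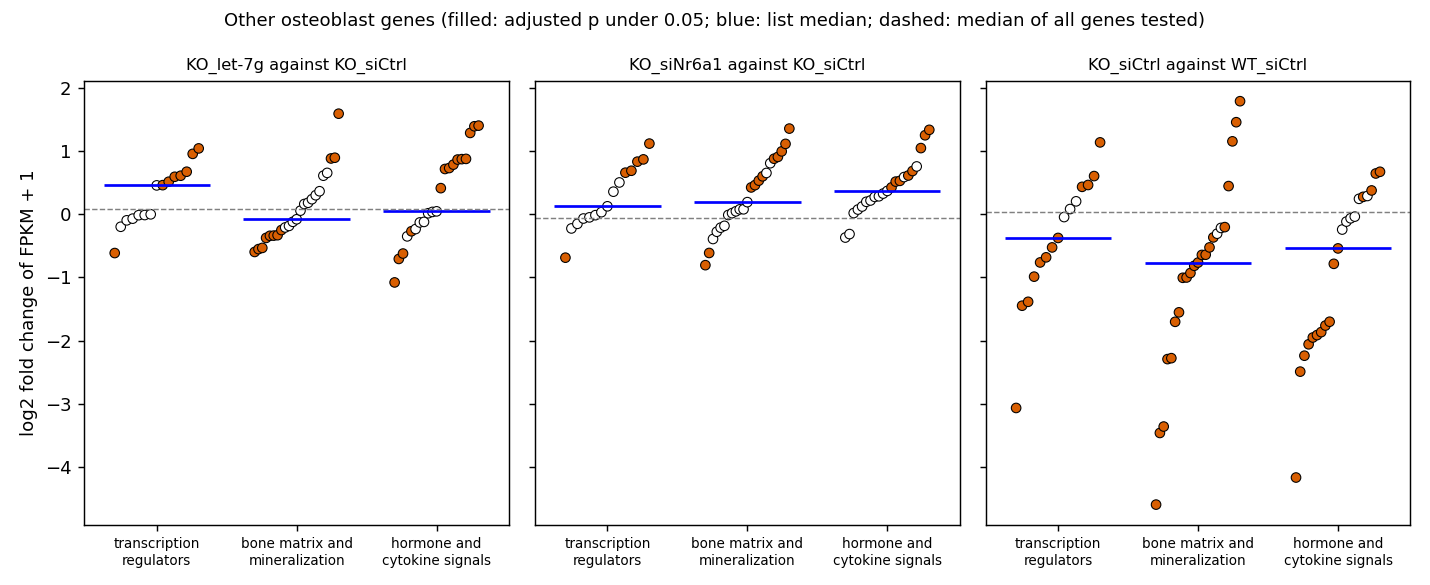
Differences in log2(FPKM + 1) (y axis) of other osteoblast genes in 3 lists (x axis) for KO_let-7g against KO_siCtrl, KO_siNr6a1 against KO_siCtrl and KO_siCtrl against WT_siCtrl. Each point is a gene, filled where the adjusted p is under 0.05; blue bars are list medians and the dashed line is the median of all genes tested. Most points of the bone matrix list lie below 0 in KO_siCtrl against WT_siCtrl, where 17 of 23 were called lower.

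Markers of other cell types moved with the genotype as well, and their part in the osteoblast gene values was not tested. Over all genes tested, 29.1% were called higher and 25.2% lower in KO_siCtrl against WT_siCtrl. Of 7 tested smooth muscle and myofibroblast markers, 6 were lower in KO_siCtrl. Among these, Cnn1 and Actg2 passed the filter through WT libraries alone and had to be lower, and Lmod1 passed only with the help of WT libraries. The list's 8 genes summed to 30.9 to 33.2 FPKM in KO_siCtrl against 1640 to 2012 in WT_siCtrl. Acta2 alone stood at 17.1 ± 2.27 FPKM against 1282 ± 144. Of 5 tested adipocyte markers, 4 were lower, and the list's 10 genes summed to 72.9 to 122 FPKM in KO_siCtrl against 601 to 851 in WT_siCtrl, with Fabp4 at 1.93 ± 1.67 against 302 ± 49.9. Of 12 cartilage markers, 3 were tested, with Sox9 higher (16.2 ± 2.72 FPKM against 7.26 ± 1.37) and Col2a1 lower (0.882 ± 0.140 against 6.41 ± 1.36) in KO_siCtrl. In KO_siNr6a1 Sox9 stood at 32.8 ± 6.65 FPKM and Acta2 at 41.5 ± 4.47 FPKM, both called higher than in KO_siCtrl (adjusted p = 0.00218 and 0.000351, limma), beside the rise of Dlx5.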

How the data were processed

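The authors deposited FPKM values for 21881 genes in 12 libraries. Mouse build mm9, Cufflinks 1.0.3 and TopHat 1.2.0 are named per the submitters' processing notes. Settings and strand use in counting are not given in the sources used here. Overlapping antisense genes cannot be told apart. Read counts are not in this table, and total depth is unknown. Relative depth was the commonest ratio of FPKM values of low genes between libraries. A step is the largest unit of which at least 75% of a gene's values under 1.5 FPKM, times relative depth, were whole multiples within 0.02; it was taken as 1 read.

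Groups and replicate numbers came from sample titles. The 11801 genes that reached an FPKM of 1 in 3 or more libraries entered the test. It ran in limma 3.58.1 under R 4.3.3 on log2(FPKM + 1), as a moderated two-sided test with trend, 1 coefficient per group over all 12 libraries, and Benjamini-Hochberg adjustment over all genes. Calls had an adjusted p under 0.05. The method was tested on simulated data. Intervals are 95% intervals of that fit.

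Members and lists were chosen with earlier results of these data known, so no list count is independent support. Named genes were the 9 members, the targeted genes, and from each list those with the smallest adjusted p in KO_siCtrl against WT_siCtrl (up to 4) or a treatment against KO_siCtrl (up to 2), and the most abundant markers of other cell types. Marker genes named to check the cell type, Itgb1, Eng, Thy1, Ptprc, Csf1r, Emr1 and Itgam, were chosen after their values were seen.

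Same-number libraries deviated from their group means together. Correlations across genes were 0.127 or higher in 5 comparisons, which were taken as paired on these values, since no label says so. In KO_siNr6a1 against WT_siCtrl, which was not, the lowest was 0.0915. For 12 of 12 libraries, the library of another group with the most similar deviations had the same number. The calls and p-values reported without mention of the block ignore this pairing. A gene not called there, such as Alpl or Spp1 in the comparisons given above, can be called with the block. The fit with a replicate block was an alternative, beside other pseudocounts, filters, scalings, no trend, library weights, fits of 2 groups and leaving out each library. Sequences are from RefSeq GRCm38.p6, and 3′ untranslated regions from GENCODE transcripts of GRCm38; coordinates of mm9 were not used.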

Additional observations from a re-analysis of the deposited data

How the results depend on the processing

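Calls in KO_siCtrl against WT_siCtrl (8 as reported), KO_siNr6a1 against KO_siCtrl (2) and both treatments against WT_siCtrl (7 each) kept to within 1.5 times their number under every alternative run. The genes called were not always the same. In KO_siNr6a1 against KO_siCtrl, Dlx3 was called and Spp1 was not when no filter was used, and Alpl was added with the replicate block. In KO_let-7g against KO_siCtrl the number called was 1 as reported and 0 with no filter, quantile normalization or only these 2 groups, and 0 to 1 with single libraries left out. In KO_let-7g against KO_siNr6a1 it was 1 as reported, 2 with no filter (Dlx3 added), 2 with quantile normalization and 2 with library weights (Spp1 added), 3 with the replicate block (Alpl and Spp1 added) and 1 to 2 with single libraries left out. Over all genes the block moved the number called in KO_siNr6a1 against KO_siCtrl to 5248 against 3474 without it; beyond the changes of Alpl and Spp1 given above it changed no other member's call. The cause of these changes was not tested.

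Values that changed sign were all small and not called. With upper quartile scaling Runx2 in KO_siNr6a1 against KO_siCtrl became 0.024, Bglap between the treatments -0.0011 and Spp1 in KO_siNr6a1 against WT_siCtrl -0.0035. With median of ratios scaling these first 2 became 0.0595 and -0.0379, and Msx2 in KO_siNr6a1 against KO_siCtrl 2e-04. With quantile normalization Runx2 in KO_siNr6a1 became 0.0176, Bglap between the treatments -0.14 and Ibsp in KO_let-7g against KO_siCtrl -0.0123. Rescaling each library to the same sum gave Runx2 in KO_siNr6a1 0.0114. A pseudocount of 0.1 gave Bglap in KO_let-7g against KO_siCtrl 0.0639. With library weights Sp7, Alpl and Bglap in KO_let-7g against KO_siCtrl became 0.0238, 0.0277 and 0.0536, Runx2 and Bglap in KO_siNr6a1 against KO_siCtrl 0.0058 and 0.0499, and Ibsp between the treatments 0.0896.

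With single libraries left out, the ranges in KO_let-7g against KO_siCtrl were -0.45 to 0.27 (Alpl), -0.24 to 0.21 (Bglap), -2e-04 to 0.14 (Ibsp), -0.0697 to 0.0646 (Runx2) and -0.16 to 0.0467 (Sp7). In KO_siNr6a1 against KO_siCtrl they were -0.24 to 0.20 (Bglap), -0.0122 to 0.0119 (Msx2) and -0.0585 to 0.0839 (Runx2). Between the treatments they were -0.14 to 0.17 (Bglap), -0.12 to 0.0213 (Ibsp) and -0.071 to 0.0344 (Runx2), and in KO_siNr6a1 against WT_siCtrl -0.0491 to 0.16 (Spp1).

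Low read numbers limit Msx2 and Ibsp in KO cells, where differences of a few reads cannot be resolved. Sp7 came to 10 to 32 steps in KO libraries. For Bglap and Dlx3, also low in KO cells, no steps are given, so their read numbers are unknown.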
